A study of Mus musculus with 20 samples.

Results

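The miR-17 to miR-92 cluster is a group of microRNAs (miRNAs, small RNAs that repress messenger RNAs) made from 1 primary transcript. It was described here in the serum of female mice through its 6 mature miRNAs: mmu-miR-17-5p, mmu-miR-18a-5p, mmu-miR-19a-3p, mmu-miR-20a-5p, mmu-miR-19b-3p and mmu-miR-92a-3p. These members were taken by name from a count table of 1915 mature miRNA names, of which 1191 had at least 1 read. Small RNA of 20 serum samples was sequenced, 5 from each of 4 groups. Young normal and young dwarf mice were 5 to 6 months old, and old normal and old dwarf mice were 21 to 22 months old. The dwarf mice were Ames dwarfs, a strain of small, long-lived mice. The labels give 1 strain entry, Ames dwarf on a heterogeneous genetic background, to all groups, and name no treatment. They do not give the alleles of the normal mice, and they do not say that each sample came from a separate mouse, so p-values measure the spread between these samples.

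The hairpins of the cluster are cut from the primary transcript by Drosha and then by Dicer, and 1 strand of each duplex is usually kept by an Argonaute protein. The targets of a miRNA are read mostly through its seed, bases 2 to 8 from the 5′ end. The cluster is known as a growth-promoting locus that restrains the cell-death factor Bim, is high in dividing blood cell progenitors and is amplified in lymphomas. Its members have 4 seeds, those of the miR-17, miR-18, miR-19 and miR-92 families. In blood, miR-92a is an abundant miRNA of red cells and their precursors.

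The mature sequences are printed to show which members share a seed and how little separates the near-identical ones, since a read can be assigned only by the bases that differ. They are RefSeq's for GRCm38.p6, 5′ to 3′, with the seed in capitals.
mmu-miR-17-5p: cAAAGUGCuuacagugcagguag
mmu-miR-20a-5p: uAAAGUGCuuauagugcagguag
mmu-miR-18a-5p: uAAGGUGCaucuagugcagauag
mmu-miR-19a-3p: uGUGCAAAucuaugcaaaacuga
mmu-miR-19b-3p: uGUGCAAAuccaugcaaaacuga
mmu-miR-92a-3p: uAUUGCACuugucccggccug
All 6 members had a RefSeq sequence. The miR-17 seed was shared by mmu-miR-17-5p and mmu-miR-20a-5p, which differ by C1U and C12U, counted from the 5′ end. The miR-19 seed was shared by mmu-miR-19a-3p and mmu-miR-19b-3p, which differ by the single substitution U11C. Each of the other 2 members had a seed that no other member had. The mature forms are 21 to 23 bases long, so length should have little effect when read numbers of different members are compared. Other effects of sequence on read numbers were not measured, so levels of different members are compared below as reads only.

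On GRCm38 the 6 hairpins lie on the plus strand within 836 bases, at chr14:115043671-115044506, and all of them are inside exon 2 of Mir17hg, annotated by GENCODE as a long intergenic non-coding RNA (chr14:115042879-115046727). Their order is Mir17, Mir18, Mir19a, Mir20a, Mir19b-1 and Mir92-1, with starts at 0, 180, 329, 486, 634 and 756 bases from the first. A second hairpin for each of the last 2, Mir92-2 (chrX:52741838-52741928) and Mir19b-2 (chrX:52741983-52742066), is on the minus strand of chromosome X, where the related miR-106a to miR-363 cluster lies.

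**Figure D1:**
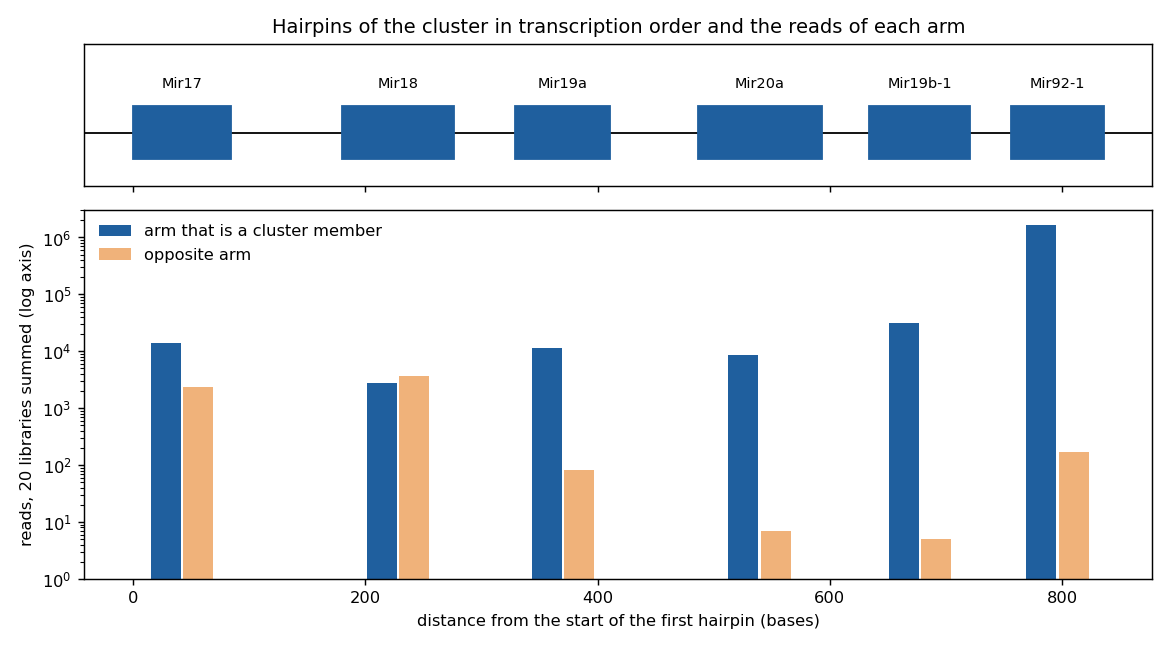
The upper panel draws the 6 hairpins to scale by their distance in bases from the start of the first, and the lower panel plots, on a log axis, the reads of the member arm and of the opposite arm summed over 20 libraries. Reads of the member arm range from 2814 for miR-18a-5p to 1628032 for miR-92a-3p, and Mir18 is the hairpin whose opposite arm has more reads (3742).

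Total counts were 1343137 to 4710263 per library. The level of a miRNA is given below as CPM, counts per 1000000 reads after scaling with TMM factors, which correct for a few dominant miRNAs. The red-cell miRNA miR-486a-5p took 16.9% to 33.3% of a library's total count. Its reads are also listed under miR-486b-5p and stand in that total under both names, so its share of distinct reads was higher. An index of red-cell RNA in serum, log2 of the ratio of miR-451a reads to miR-23a-3p reads (1 added to each), was 3.13 to 4.83 for old and 4.66 to 6.29 for young normal mice, and 5.08 to 6.03 for young and 4.90 to 6.09 for old dwarf mice. The old normal group thus had the lowest mean index, 4.30 ± 0.70 (SD, n = 5), against 5.38 ± 0.44 in the old dwarf group. Serum has no cell type of its own to check, and miRNAs on each of 6 marker lists (red cell, platelet and myeloid, lymphocyte, liver, muscle, endothelial) had reads.

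Read levels of the members differed widely in serum, and reads of mmu-miR-92a-3p and mmu-miR-19b-3p can also stem from their chromosome X hairpins. The level of mmu-miR-92a-3p was 35469 CPM on average over 20 libraries, the 5th highest of 360 tested miRNA names. Ranks count mmu-miR-486a-5p and mmu-miR-486b-5p, both higher, as separate names although they list the same reads. Among the members, mmu-miR-92a-3p was followed by mmu-miR-19b-3p at 648 CPM (rank 67), mmu-miR-17-5p at 286 CPM (rank 87), mmu-miR-19a-3p at 226 CPM (rank 98), mmu-miR-20a-5p at 174 CPM (rank 105) and mmu-miR-18a-5p at 58.2 CPM (rank 153). In 20 of 20 libraries mmu-miR-92a-3p exceeded mmu-miR-19b-3p, mmu-miR-19b-3p exceeded mmu-miR-17-5p, and mmu-miR-20a-5p exceeded mmu-miR-18a-5p. The order in the middle was not fixed, since mmu-miR-17-5p was above mmu-miR-19a-3p in 14 of 20 libraries and mmu-miR-19a-3p above mmu-miR-20a-5p in 16 of 20, with overlapping ranges. On average 94.8% of the reads of the members were mmu-miR-92a-3p, from 84.2% to 98.6% per library. The 6 members held 1.51% to 6.65% of a library's total count. The ratio of mmu-miR-92a-3p to mmu-miR-17-5p reads had a median of 107 and ran from 45.9 to 305.

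**Figure D2:**
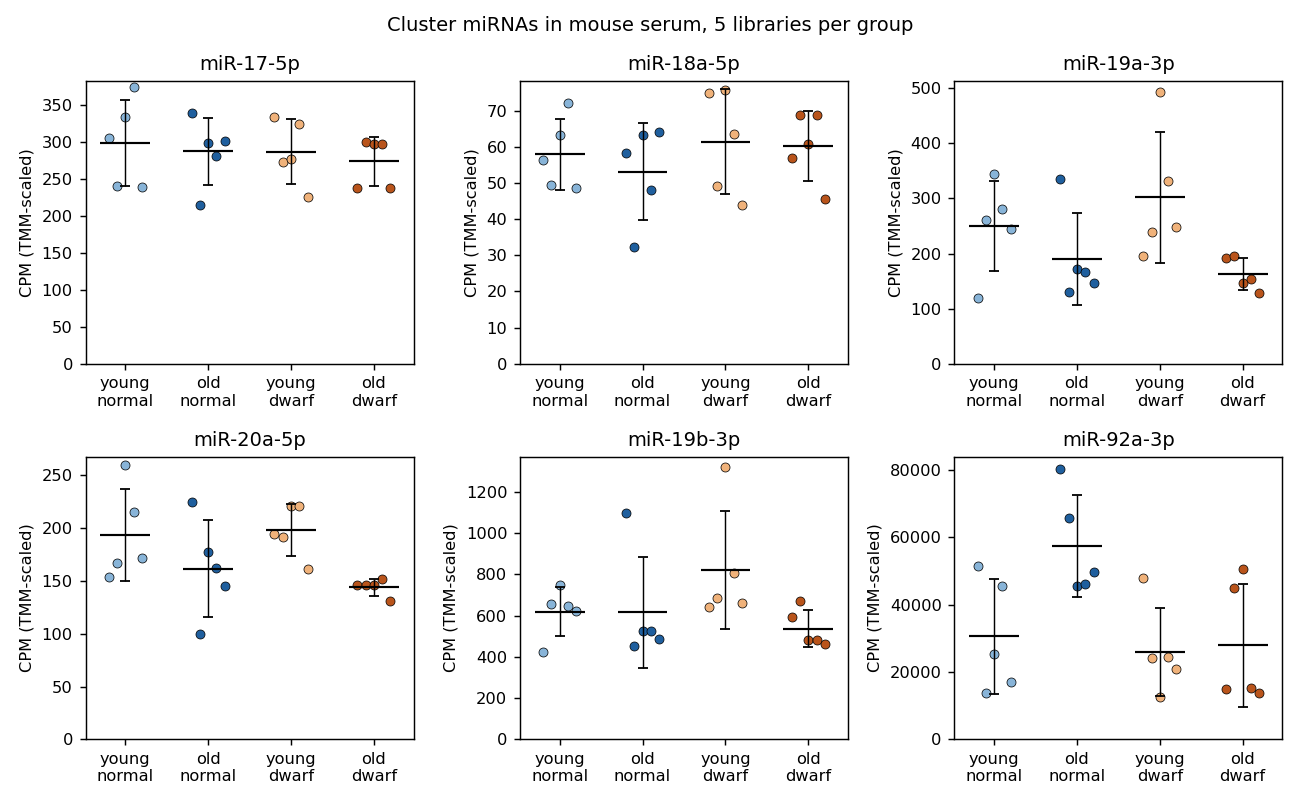
Each panel plots the CPM (linear axis from 0) of 1 member in the 20 libraries by group, with the group mean as a long bar and 1 SD as the error bar. Old dwarf libraries lie below all young dwarf libraries for miR-19a-3p and miR-20a-5p. The miR-92a-3p levels of old dwarf mice fall in 2 separate ranges, 13721 to 15281 and 44841 to 50648 CPM. Those of young normal mice are spread about as widely, from 13730 to 51338 CPM.

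The miR-17 family members bind targets that include cell-cycle inhibitors. For mmu-miR-17-5p the lowest, median and highest levels were 239, 305 and 374 CPM for young and 215, 298 and 339 CPM for old normal mice, then 225, 276 and 334 CPM for young and 237, 296 and 300 CPM for old dwarf mice. It was the steadiest member, with a highest level 1.74 times the lowest over all 20 libraries, and all groups overlapped.
The level of mmu-miR-20a-5p was 153, 167, 260, 215 and 172 CPM in young normal libraries 1 to 5 and 224, 99.4, 177, 162 and 146 CPM in old normal libraries. It was 194, 192, 221, 221 and 162 CPM in young dwarf and 146, 146, 146, 152 and 131 CPM in old dwarf libraries. The old dwarf libraries were close together, at 144 ± 8.0 CPM (SD, n = 5), and all were below the lowest young dwarf library.
The lowest member, mmu-miR-18a-5p, rested on 36 to 256 reads per library. Its levels were 48.7 to 72.1 CPM for young and 32.2 to 64.2 CPM for old normal mice, and 44.0 to 75.8 CPM for young and 45.7 to 68.9 CPM for old dwarf mice, and these ranges overlapped.

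The miR-19 pair, the main growth-promoting family of the cluster, varied more. Young normal libraries 1 to 5 held 119, 261, 344, 281 and 245 CPM of mmu-miR-19a-3p, and old normal libraries held 336, 131, 171, 166 and 146 CPM. Young dwarf libraries held 196, 239, 494, 332 and 248 CPM, and old dwarf libraries 192, 195, 146, 154 and 129 CPM. Every old dwarf library was below every young dwarf library, while 1 old normal library (replicate 1) stood above the other 4 of its group.
For mmu-miR-19b-3p the levels were 423, 654, 748, 647 and 621 CPM in young normal and 1095, 450, 527, 526 and 485 CPM in old normal libraries. They were 640, 683, 1321, 806 and 659 CPM in young dwarf and 591, 669, 480, 480 and 465 CPM in old dwarf libraries. The same old normal library and young dwarf replicate 3 were high for both miR-19 members. The dwarf age groups overlapped here, with an old dwarf library higher in 2 of 25 pairs of libraries.

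The miR-92 family member had the widest range, a highest level 6.33 times the lowest. Young normal libraries 1 to 5 held 51338, 13730, 25342, 45598 and 16899 CPM of mmu-miR-92a-3p. Old normal libraries held 80299, 65564, 45495, 45986 and 49701 CPM, so that all 5 were above 3 of the young normal ones. Young dwarf libraries held 47820, 24247, 12685, 24299 and 20960 CPM, and old dwarf libraries 14923, 44841, 50648, 15281 and 13721 CPM. The old normal group had the highest mean, 57409 ± 15185 CPM (SD, n = 5), against 30581 ± 16992 CPM for young normal mice, 26002 ± 13084 CPM for young and 27883 ± 18256 CPM for old dwarf mice. It overlapped each other group.

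The first comparison asked whether the dwarf genotype went with another serum level in young mice. With edgeR's quasi-likelihood test, 0 of 6 members changed at an adjusted p under 0.05 (Benjamini-Hochberg over 360 miRNAs), where 0.0% of all tested miRNAs did. The count at an unadjusted p under 0.05 was 0 of 6 members and 28 of 360 miRNAs, and DESeq2 called 0 members. The widest difference among members was that of mmu-miR-19b-3p, 0.41 ± 0.26 higher in dwarf mice on the log2 scale (SE; edgeR adjusted p = 0.670), with a 95% interval from -0.13 to 0.95. For mmu-miR-17-5p the log2 difference was -0.06 with an interval from -0.44 to 0.32, and for mmu-miR-92a-3p it was -0.23 with an interval from -1.14 to 0.67. The other 3 members had log2 differences of 0.03 to 0.27. The median log2 difference was 0.06 over the members and -0.04 over all tested miRNAs. The groups overlapped for each member, and 1.94% of tested miRNAs did not overlap.

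**Figure D3:**
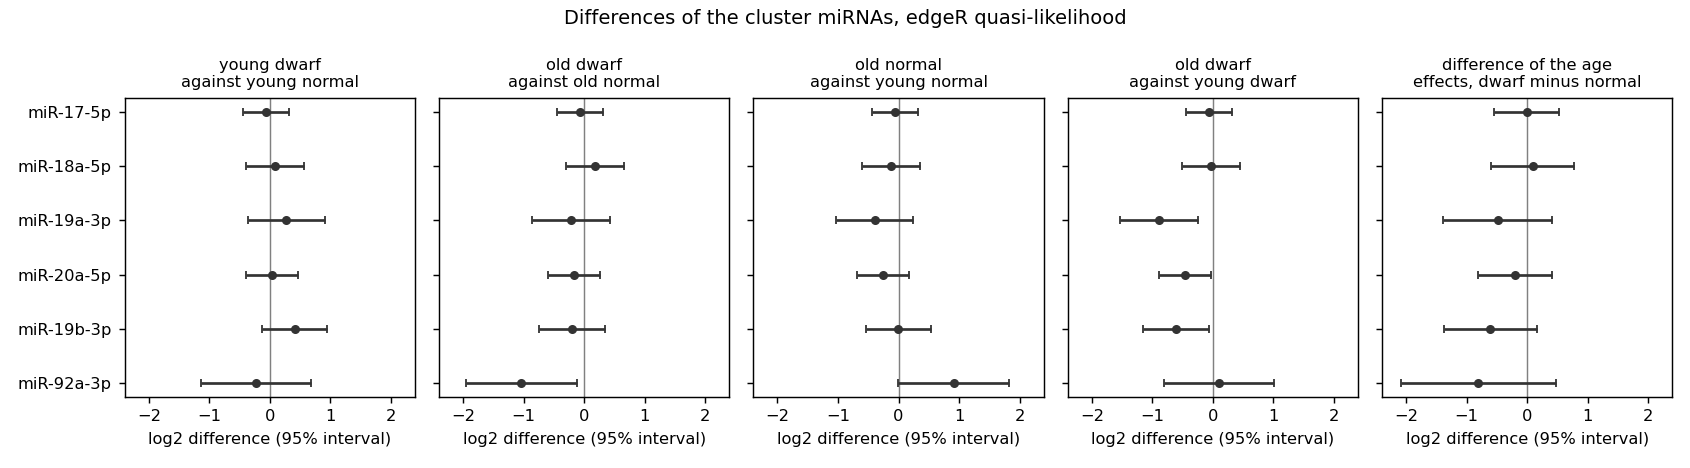
Each panel plots 1 comparison, with the log2 difference of each member as a point and its 95% interval as a bar; in panels of 2 groups a value above 0 is higher in the first. Intervals leave out 0 for miR-92a-3p between old groups and for miR-19a-3p, miR-20a-5p and miR-19b-3p between dwarf ages, and none of these passed the adjustment over 360 miRNAs.

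In old mice the genotypes differed over many serum miRNAs, but again 0 of 6 members passed the test, where 26.4% of all tested miRNAs did. At an unadjusted p under 0.05 there was 1 of 6 members, against 163 of 360 miRNAs, and DESeq2 called 0 members. That member was mmu-miR-92a-3p, whose log2 difference was -1.04 ± 0.44 (SE; edgeR unadjusted p = 0.0280, adjusted p = 0.0758), with a 95% interval from -1.96 to -0.12. An old dwarf library was the higher one in 3 of 25 pairs, and all 3 pairs held old dwarf replicate 3. Replicates 2 and 3 were the high libraries of their group. Leaving out replicate 2 gave -1.28 (edgeR adjusted p = 0.0406) and leaving out replicate 3 gave -1.36 (edgeR adjusted p = 0.0317), both past the threshold, as was the fit on library totals without TMM, -0.93 (edgeR adjusted p = 0.0343). Over all 30 alternatives the adjusted p ran from 0.0317 to 0.514.
The summed levels of the blood-cell marker lists had lower medians in old dwarf than in old normal libraries, while single red-cell miRNAs went in both directions. The summed level of 4 of 4 platelet and myeloid miRNAs was 53371 to 74931 CPM in old normal and 19950 to 57459 CPM in old dwarf libraries, and that of 4 of 4 lymphocyte miRNAs was 1591 to 5009 and 667 to 1453 CPM. By edgeR, 4 of 4 lymphocyte miRNAs and 1 of 4 platelet and myeloid miRNAs (mmu-miR-191-5p) were lower in old dwarf mice at an adjusted p under 0.05. The summed level of 5 of 5 red-cell miRNAs was 345146 to 519321 CPM in old normal and 244952 to 499469 CPM in old dwarf libraries, and most of that sum is mmu-miR-486a-5p (log2 difference -0.32, edgeR adjusted p = 0.417). Of the red-cell miRNAs, 0 of 5 passed, and 3 had differences opposite in sign to that of mmu-miR-92a-3p, 0.73 for mmu-miR-451a (edgeR adjusted p = 0.055), 0.57 for mmu-miR-144-3p and 0.63 for mmu-miR-144-5p. No list had a miRNA without reads, and the part of these lists in the difference was not tested. With the red-cell index as a term in the model the log2 difference of mmu-miR-92a-3p was -0.65 (edgeR adjusted p = 0.514). The index ran from 3.13 to 4.83 in old normal and from 4.90 to 6.09 in old dwarf libraries, without overlap. Index and group therefore cannot be told apart here, and that fit called 0 miRNAs between old groups, against 95 without the index.
The other 5 members had log2 differences from -0.22 to 0.18 between old groups. For mmu-miR-17-5p the difference was -0.07 with an interval from -0.45 to 0.31. The median log2 difference was -0.18 over the members and -0.06 over all tested miRNAs. The old groups overlapped for each member (0 of 6 apart), and 12.5% of tested miRNAs did not overlap.

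With age in normal mice, 0 of 6 members changed, where 15.6% of all tested miRNAs did (edgeR, adjusted p under 0.05). At an unadjusted p under 0.05 there were 0 of 6 members and 138 of 360 miRNAs, and DESeq2 called 0 members. The log2 difference of mmu-miR-92a-3p was 0.91 ± 0.44 in the direction of old mice (SE; edgeR unadjusted p = 0.0515, adjusted p = 0.130), with a 95% interval from -0.01 to 1.82, and an old library was higher in 21 of 25 pairs. Differences of the other members were at or below 0, from -0.40 for mmu-miR-19a-3p to -0.00 for mmu-miR-19b-3p. The median log2 difference was -0.09 over the members and -0.00 over all tested miRNAs. On library totals without TMM, mmu-miR-20a-5p was called with a log2 difference of -0.68 (edgeR adjusted p = 0.0465), a scale on which the median of all tested miRNAs was -0.42. The groups overlapped for each member, and 7.78% of tested miRNAs did not overlap.

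With age in dwarf mice, the 3 members from the middle of the cluster had negative differences that did not pass the adjusted test. Here 0 of 6 members were called, against 0.556% of all tested miRNAs, by edgeR at an adjusted p under 0.05. At an unadjusted p under 0.05 there were 3 of 6 members and 14 of 360 miRNAs, and DESeq2 called 0 members. The log2 difference was -0.89 ± 0.31 for mmu-miR-19a-3p (SE; edgeR unadjusted p = 0.00939, adjusted p = 0.470), the 7th smallest p of 360. For mmu-miR-19b-3p it was -0.61 ± 0.26 (edgeR unadjusted p = 0.0284, adjusted p = 0.923), and for mmu-miR-20a-5p -0.46 ± 0.21 (edgeR unadjusted p = 0.0398, adjusted p = 0.997).
Their hairpins Mir19a, Mir20a and Mir19b-1 are neighbours in the transcript, but reads of mmu-miR-19b-3p can also stem from chromosome X. Whether the shared transcript has a part in these differences was not tested. For 2 of 6 members, mmu-miR-19a-3p and mmu-miR-20a-5p, the groups did not overlap and an old dwarf library was higher in 0 of 25 pairs. This was the case for 1.67% of all tested miRNAs, 3 higher and 3 lower in old dwarf mice, and these members are 2 of the 3 lower ones. Each of the 3 members kept its sign under all 30 alternatives, with an adjusted p of at least 0.131. Log2 differences ran from -1.32 to -0.63 for mmu-miR-19a-3p, -1.05 to -0.37 for mmu-miR-19b-3p and -0.85 to -0.35 for mmu-miR-20a-5p. Fits without single normal libraries, or with another row for mmu-miR-92a-3p only, could hardly move these values. The levels of the 3 members went together, with r from 0.74 to 0.94 over 20 libraries. Those libraries include the dwarf ones compared here. The members at both ends of the cluster had log2 differences of -0.07 for mmu-miR-17-5p (95% interval -0.45 to 0.32), -0.03 for mmu-miR-18a-5p (-0.51 to 0.45) and 0.10 for mmu-miR-92a-3p (-0.81 to 1.01). The median log2 difference was -0.26 over the members and 0.02 over all tested miRNAs.

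The title of the study asks about interactions of genotype and age, which were tested as the age difference in dwarf mice minus that in normal mice. Again 0 of 6 members passed, against 0.556% of all tested miRNAs. At an unadjusted p under 0.05 there were 0 of 6 members and 57 of 360 miRNAs, and DESeq2 called 0 members. The value for mmu-miR-92a-3p was -0.81 ± 0.62 on the log2 scale (SE; edgeR adjusted p = 0.517), with a 95% interval from -2.09 to 0.48. For mmu-miR-19b-3p it was -0.61 ± 0.37 (edgeR adjusted p = 0.414), for mmu-miR-19a-3p -0.49 ± 0.43 (edgeR adjusted p = 0.553) and for mmu-miR-20a-5p -0.20 ± 0.29 (edgeR adjusted p = 0.731). The age differences of the middle members, which passed the adjusted test in neither genotype, were thus not shown to differ between genotypes. The median was -0.34 over the members and 0.01 over all tested miRNAs.

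Because mmu-miR-92a-3p and mmu-miR-19b-3p each have 2 hairpins, their reads can stem from either locus. The hairpins of the first are printed from the 5′ end of the mature form to the 5th base after it, with the first base where they differ in capitals, to show where a read could tell them apart.
Mir92-1: uauugcacuugucccggccugUugag
Mir92-2: uauugcacuugucccggccugAggaa
The 21 bases of the mature form are the same, and the substitution from Mir92-1 to Mir92-2 right after it is U22A. The count table lists 1628032 reads of mmu-miR-92a-3p under mir-92a-1 and 524110 under mir-92a-2. The excess of the mir-92a-1 row was 1103922 reads or 67.8% of that row, with 55.2% to 72.9% per library. It equals the reads listed under the cluster's hairpin alone only if each read of the mir-92a-2 row is in both rows, which the table does not show. In the authors' deposited table of pooled hairpins, the consensus of Mir92-1 was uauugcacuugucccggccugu, 22 bases with the extra base of that locus, and the consensus of Mir92-2 was 21 bases long. Each consensus comes from the reads listed under its hairpin, so it does not show which locus they came from. The excess of the mir-92a-1 row was 66.6% ± 2.1 for young and 69.3% ± 3.3 for old normal mice (SD, n = 5). It was 68.7% ± 2.8 for young and 61.8% ± 4.5 for old dwarf mice (SD, n = 5). Old dwarf mice were 7.55 percentage points below old normal mice (2-sided exact permutation p = 0.0159) and 6.91 points below young dwarf mice (exact p = 0.0238). Adjusted over 12 comparisons of shares, both exact tests had p = 0.127 and did not pass.
Between old groups the log2 difference was -1.14 ± 0.49 for the excess of the mir-92a-1 row (SE; edgeR adjusted p = 0.0843) and -0.71 ± 0.42 for the mir-92a-2 row (edgeR adjusted p = 0.196). For mmu-miR-19b-3p both hairpin rows held 31608 reads, with equal numbers in 18 libraries and a difference of 1 read in the other 2, so these rows do not tell how the reads divide between the loci. The opposite arms, which do differ between loci, had 5 reads for mmu-miR-19b-1-5p and 171 for mmu-miR-92a-1-5p, against 0 reads in 20 libraries for both mmu-miR-19b-2-5p and mmu-miR-92a-2-5p of chromosome X.

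The strand kept from each hairpin was examined next. The member arm held 99.3% of both arms' reads for Mir19a, 99.9% for Mir20a, 99.98% for Mir19b-1 and 99.99% for Mir92-1, over 20 libraries. It held 85.6% for Mir17. The reads of mmu-miR-19b-3p and mmu-miR-92a-3p can include those of the chromosome X hairpins, so their shares are not those of Mir19b-1 and Mir92-1 alone. In Mir18 the opposite arm was the larger, and the member arm mmu-miR-18a-5p held 42.9% of the reads (2814 against 3742).
The 2 arms of Mir18 are printed because both circulate at similar levels yet have unlike seeds, in capitals.
mmu-miR-18a-5p: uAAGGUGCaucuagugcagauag
mmu-miR-18a-3p: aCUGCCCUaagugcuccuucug
The miR-18a-5p share was 31.2%, 54.1%, 50.6%, 41.0% and 53.1% in young normal libraries 1 to 5 and 27%, 24.7%, 36.8%, 33.2% and 39.8% in old normal libraries. It was 41.9%, 52.2%, 67.4%, 48.7% and 46.3% in young dwarf and 52.5%, 40.9%, 34.4%, 56.4% and 44.0% in old dwarf libraries. The opposite arm was in excess in all 5 old normal libraries, while the other groups held libraries on both sides of an even split. The share was lower in old normal than in old dwarf mice by 13.4 points (exact permutation p = 0.0317) and than in young normal mice by 13.7 points (exact p = 0.0476), and neither passed the adjustment over 12 comparisons (p = 0.127 and p = 0.133). The miR-17-5p share was 84.6% ± 1.3 for young and 84.0% ± 2.6 for old normal mice, and 87.6% ± 3.2 for young and 87.2% ± 2.2 for old dwarf mice (SD, n = 5), with an adjusted exact p of at least 0.133. Of the opposite arms, 3 of 6 were abundant enough to test (mmu-miR-17-3p, mmu-miR-18a-3p and mmu-miR-92a-1-5p), and 0 of 3 were called by edgeR in each comparison. At an unadjusted p under 0.05 there was 1, mmu-miR-92a-1-5p with age in normal mice, at a log2 difference of 1.79 ± 0.65 (edgeR adjusted p = 0.064). Old normal replicate 1 held 49 of the group's 75 reads of it, and without that library the log2 difference was 0.62 ± 0.55 (edgeR adjusted p = 0.403). Without old normal replicate 4 or 5 it was 1.95 and 2.09 (edgeR adjusted p = 0.0399 and 0.0287).

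**Figure D4:**
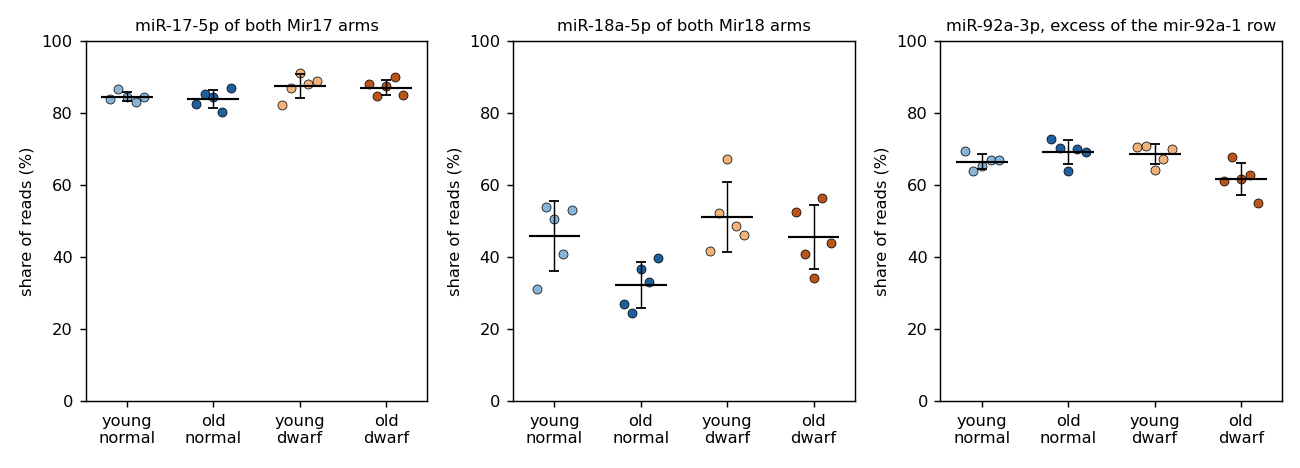
The panels plot, for 20 libraries by group, the percentage of Mir17 reads on the member arm, of Mir18 reads on the member arm, and of the mir-92a-1 row of miR-92a-3p in excess of the mir-92a-2 row, with group means and SD bars. The Mir18 share spreads from 24.7% to 67.4% and is lowest on average in old normal mice, and the last share is lowest on average in old dwarf mice.

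Libraries high for 1 member were not always high for the others. Over the 15 pairs of members, correlations of log2 CPM in 20 libraries were computed, which share the library total. The highest was that of mmu-miR-19a-3p with mmu-miR-19b-3p, r = 0.94 (permutation p = 1e-05, the smallest that 100000 resamples can give; adjusted 1.5e-04) and rho = 0.94 (adjusted 7.5e-05). Without the 2 libraries farthest from the median of the first-named member alone, r was 0.92. For mmu-miR-19a-3p with mmu-miR-20a-5p r was 0.82 and rho 0.83 (permutation p = 2e-05 and 1e-05), and r was 0.79 without the 2 farthest libraries for mmu-miR-19a-3p. For mmu-miR-17-5p with mmu-miR-18a-5p r was 0.77 and rho 0.69 (permutation p = 5e-05 and 0.00112), and r was 0.67 without the 2 farthest libraries for mmu-miR-17-5p. Within groups these 3 values were 0.95, 0.73 and 0.84. For the most abundant member, mmu-miR-92a-3p, r ran from -0.30 with mmu-miR-19a-3p to 0.46 with mmu-miR-17-5p, with an adjusted permutation p of at least 0.0906. The last of these was 0.69 without the 2 farthest libraries for mmu-miR-17-5p and 0.57 within groups.

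**Figure D5:**
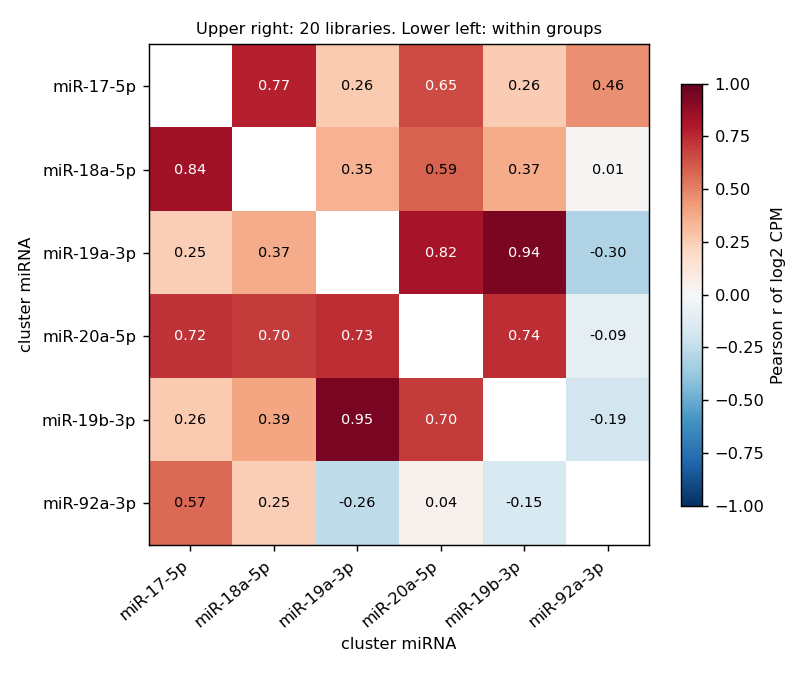
The grid gives Pearson's r of log2 CPM for each pair of members, over 20 libraries above the diagonal and after removing group means below it, coloured from -1 (blue) to 1 (red). The miR-19 pair and miR-20a-5p form a red block with r from 0.74 to 0.94 over 20 libraries, and the miR-92a-3p row is pale or blue except for miR-17-5p.

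Among all 360 tested miRNAs, those most like mmu-miR-92a-3p over the 20 libraries were not members but mmu-miR-744-5p (r = 0.97), mmu-miR-350-5p (r = 0.96) and mmu-miR-425-5p (r = 0.96). For mmu-miR-17-5p they were mmu-miR-140-3p (0.80), mmu-miR-421-3p (0.79) and mmu-miR-30e-5p (0.78). The closest to mmu-miR-18a-5p were mmu-miR-17-5p (0.77), mmu-miR-15b-5p (0.77) and mmu-miR-16-5p (0.74). The miR-19 pair and mmu-miR-20a-5p had each other in their closest 3, with mmu-miR-140-5p as a further one for mmu-miR-19a-3p (0.71) and mmu-miR-20a-5p (0.74) and mmu-miR-148a-3p for mmu-miR-19b-3p (0.71). These values are descriptions of the same 20 libraries.

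Relatives of the cluster were listed as 19 miRNAs of the miR-106a to miR-363 cluster, the miR-106b to miR-25 cluster (in an intron of Mcm7) and others with a member's seed. Of these, 10 of 19 were tested, and edgeR called 0 of 10 in each of the 5 comparisons. At an unadjusted p under 0.05 there were 0, 2, 1, 1 and 0 of 10 in the order given above. The relatives on chromosome X were scarce, with 163 reads of mmu-miR-106a-5p and 183 of mmu-miR-20b-5p in all 20 libraries, against 13790 of mmu-miR-17-5p. Those of the miR-106b to miR-25 cluster were abundant, and mmu-miR-25-3p, with 24570 to 28713 CPM as group means, came near mmu-miR-92a-3p, whose seed it shares and from which it differs by U1C, C14U and C18U. Its log2 difference between old groups was -0.10 ± 0.25 (95% interval -0.62 to 0.42; edgeR adjusted p = 0.759), and whether it differed from that of mmu-miR-92a-3p was not tested. The miR-17 seed was carried mainly by mmu-miR-93-5p, with 5531 to 6893 CPM as group means.
mmu-miR-25-3p: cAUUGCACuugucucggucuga
mmu-miR-93-5p: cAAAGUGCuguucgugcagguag
Of the relatives, mmu-miR-363-3p had a log2 difference between old groups of -1.16 ± 0.51 (edgeR adjusted p = 0.088), at 26.4 ± 11 CPM in old normal and 11.6 ± 8.0 CPM in old dwarf libraries (SD, n = 5). Another relative with the miR-92 seed, mmu-miR-92b-3p, had a difference of the opposite sign, 0.98 ± 0.57 (SE; edgeR adjusted p = 0.183). Its level was 25.8 to 351 CPM (median 76.4) in old dwarf and 33.2 to 123 CPM (median 53.6) in old normal libraries. The highest level was that of old dwarf replicate 3, with 623 reads, where the other old dwarf libraries had 52 to 166 reads. Of the 10 relatives tested, 3 had positive and 7 negative differences between old groups. Both mmu-miR-363-3p and mmu-miR-92b-3p were chosen after their values were seen.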

How the data were processed

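Serum RNA was isolated on miRNeasy columns and sequenced as TruSeq small RNA libraries, per the labels' protocols. The submitters' processing notes name Bowtie 0.12.8, bedtools, edgeR and GRCm38 (mm10) but not their roles. The deposited whole-number read counts (1 column per sample) were used for all tests. The RPM values, reads scaled by the authors to a common total, matched counts over column sums to within 0.005 RPM and were not tested. The authors' deposited pooled hairpin table gave the consensus sequences and other read numbers of unit other. Of 2241 rows, 1 per name was used, the one with the highest total. Mature sequences matched 29 of 31 listed names (RefSeq, GRCm38.p6).

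Counts were fitted with edgeR 4.0.16 (limma 3.58.1, R 4.3.3): TMM, the default filter by group (minimum count 10), 1 coefficient per group, 20 samples sharing the spread, Benjamini-Hochberg over 360 miRNAs. DESeq2 1.42.0 was an alternative. The fit was tested on simulated data. Correlations used log2 CPM with a prior count of 2. Shares were compared with exact permutation tests, chosen after values were seen. Named miRNAs were the 6 members, their opposite arms, 19 relatives, 4 miRNAs for the red-cell content and the 3 miRNAs most like each member. Of those for the red-cell content, only miR-451a and miR-23a-3p form the index. Members and lists were chosen with earlier results of these data known. The tRNA fragments were not analysed here.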

Additional observations from a re-analysis of the deposited data

Results flagged for a closer look

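In 3 of 36 sets of 5 libraries (6 members and 3 shares in 4 groups), 1 library stood apart from the other 4 by a gap wider, relative to the whole range, than Dixon's 95% limit for 5 values. Chance flags about 1 in 20 groups, and the miR-19 pair moves together, so these are not independent. Old normal replicate 1 held 336 CPM of miR-19a-3p, where the other old normal libraries held 131 to 171 CPM. The same library held 1095 CPM of miR-19b-3p, against 450 to 527 CPM in the others. Young dwarf replicate 3 held 1321 CPM of miR-19b-3p, against 640 to 806 CPM in the others. Without old normal replicate 1, the log2 difference of miR-19b-3p with age in normal mice was -0.32. Without young dwarf replicate 3, the log2 difference of miR-19b-3p with age in dwarf mice was -0.37.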

How the results depend on the processing

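Every log2 difference of the members was recomputed under 30 alternatives (29 for the interaction, which needs all groups), 1 of them (miR-92a-3p from its mir-92a-2 row) chosen after seeing the data. Of 30 member results, 11 kept their sign throughout, and the others changed sign at least once, the farthest from 0 being miR-19a-3p with age in normal mice (-0.40). The cause of these changes was not tested. The number of called members, 0 in each comparison, became 1 on library totals without TMM between old groups (miR-92a-3p) and with age in normal mice (miR-20a-5p), and leaving out single libraries gave 0 to 1 between old groups. The main fit did not pair samples by replicate number. Same-numbered deviations from group means had r from -0.68 to 0.81, and 13 of 30 pairs were over 0.1. In 4 of 30 pairs the own number gave the highest r. The highest value, 0.81, was that of young normal with young dwarf replicate 1. These values do not settle whether samples were matched by number. A replicate block called 0 miRNAs with age in dwarf mice and 0 for the interaction. Precision is limited by 5 libraries per group and, for miR-18a-5p, by 36 to 256 reads.

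The calls over all 360 miRNAs, which the members' counts are read against, moved more. Between young groups 0 became 6 with DESeq2, 1 without the filter and 1 with the red-cell index as a model term. Between old groups 95 became 63 with only those groups in the fit and 0 with the index, and 51 to 143 without single libraries (53, 143, 55 and 51 without old dwarf replicates 1, 2, 4 and 5). With age in normal mice 56 became 117 with DESeq2, 106 on library totals, 34 with only those groups and 1 with the index, and 29 to 123 without single libraries (123, 37 and 29 without young normal replicates 1, 3 and 5, and 37 without old normal replicate 1). With age in dwarf mice 2 became 0 on library totals, 1 with summed precursor rows, 0 with only those groups, and 0 to 2 without single libraries (fewer without any young dwarf library or without old dwarf replicates 1, 3 or 4). For the interaction 2 became 20 with DESeq2, 0 on library totals, 0 with upper-quartile factors, 13 without the filter, 0 with summed rows and 0 with the index, and 0 to 3 without single libraries (fewer without any library except young normal replicate 4 and old dwarf replicate 2).

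Signs changed as follows, on the log2 scale. On library totals, where the median of all miRNAs was 0.18 between young groups, 0.23 between old groups and -0.38 with age in dwarf mice, miR-17-5p was 0.19 and miR-92a-3p 0.027 between young groups. Between old groups miR-17-5p was then 0.20, miR-19a-3p 0.071, miR-20a-5p 0.12 and miR-19b-3p 0.080, miR-92a-3p was -0.37 with age in dwarf mice, and the interaction of miR-17-5p was 0.0024. With DESeq2, miR-17-5p was 0.045 between old groups and 0.058 for the interaction. With only the compared groups, miR-17-5p was 0.011 between old groups and miR-18a-5p 0.015 with age in dwarf mice. With the index, miR-18a-5p was -0.15 between old groups and -0.25 for the interaction, and with age in normal mice miR-17-5p was 0.19, miR-18a-5p 0.23, miR-19a-3p 0.25, miR-20a-5p 0.22 and miR-19b-3p 0.40. With upper-quartile factors, miR-17-5p was 0.094, miR-18a-5p 0.029 and miR-19b-3p 0.14 with age in normal mice, and miR-17-5p was 0.035 and miR-18a-5p 0.077 with age in dwarf mice. With identical names counted once, miR-19b-3p was 0.0065 with age in normal mice, miR-18a-5p 0.029 with age in dwarf mice, and the interaction of miR-17-5p 0.051. That interaction was 0.034 without the filter and 0.018 with the mir-92a-2 row. With the replicate block, miR-18a-5p was 0.00011 with age in dwarf mice.

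Without single libraries, values with a change of sign ran as follows. Between young groups miR-17-5p ran from -0.13 to 0.055, miR-18a-5p from -0.010 to 0.19, miR-20a-5p from -0.039 to 0.16 and miR-92a-3p from -0.58 to 0.030. Between old groups miR-17-5p ran from -0.15 to 0.0047, miR-19a-3p from -0.32 to 0.095 and miR-19b-3p from -0.29 to 0.12. With age in normal mice miR-17-5p ran from -0.14 to 0.047, miR-18a-5p from -0.20 to 0.0051 and miR-19b-3p from -0.32 to 0.087. With age in dwarf mice miR-17-5p ran from -0.15 to 0.0020, miR-18a-5p from -0.13 to 0.075 and miR-92a-3p from -0.24 to 0.44. For the interaction miR-17-5p ran from -0.12 to 0.073 and miR-18a-5p from -0.035 to 0.21. The miR-17-5p arm share differed by -1.45 to 0.231 points with age in normal mice and by -1.72 to 0.449 points with age in dwarf mice, and the other differences in shares kept their sign.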
